A study of Homo sapiens with 9 samples.

Results

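RNA-Seq counts were analysed for the family of demethylases and related hydroxylases that use iron and 2-oxoglutarate, in MDA-MB-231 cells left untreated or treated with the copper chelator TEPA. The members were taken by name: the lysine demethylases KDM1 to KDM8 (without the Y-linked KDM5D), TET1 to TET3, ALKBH1 to ALKBH8, FTO, HIF1AN, RIOX1, RIOX2, JMJD6, PHF2 and PHF8. This gave 37 of the 59453 gene names in the count table. The name pattern also takes in KDM1A and KDM1B, which remove methyl groups with a flavin cofactor and not with iron, so 35 of the 37 use iron. KDM4E and KDM4F had 0 counts in each of the 9 libraries, which allows at most 0.0588 to 0.0834 CPM (counts per 1000000 counts, scaled by TMM factors) in a library if 3 counts are taken as the floor. The other 35 members had counts, passed the filter on low counts and were tested.

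MDA-MB-231 is an established human line of triple-negative breast cancer. Each of 3 conditions (untreated, 8 h of TEPA, 24 h of TEPA) was sequenced in 3 replicates, with no genetic change in any of them. The RNA sequencing methods give 4 mM TEPA and the sample labels give 8 mM, and the study's text spells TEPA out as 2 different polyamines, so neither the dose nor the chemical name is settled here. The times are those given in each sample's treatment label (8 h or 24 h). The RNA sequencing methods also give 8 h and 24 h, while the treatment protocol given with every sample names 24 h alone. The single untreated group served as the control of both times, so the comparisons with untreated cells share libraries, and time in culture without TEPA cannot be told apart from time with it. All libraries are of one line, and nothing states that replicates were separate cultures, so p-values measure the spread between these libraries, which may be technical.

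Library totals ran from 34633755 to 49342659 counts, and the members together took 0.179 to 0.187% of them. The labelled line was checked against markers. VIM, CD44, AXL, S100A4 and ANXA1, which this mesenchymal-like line expresses, summed to 5290 to 6950 CPM. Most of this sum was VIM (3242 to 4435 CPM), with CD44 at 793 to 1105, AXL at 560 to 857 and ANXA1 at 552 to 741 CPM. S100A4 was far lower, at 6.09 to 26.5 CPM. By edgeR, 3 of these 5 were called higher and 2 lower at 8 h. At 24 h S100A4 alone was called higher (adjusted p = 6.1e-09) and 3 were lower. Of 5 markers that the line should hold at low levels, PGR had 0 counts in each library, GRHL2 at most 1 count and ESR1 at most 0.240 CPM. The other two, the epithelial markers EPCAM and KRT19, were detected, EPCAM at 0.834 to 1.86 CPM and KRT19 at 0.153 to 0.528 CPM, and KRT19 was higher at 24 h (1.05 on the log2 scale, adjusted p = 0.020 by edgeR). Of the blood markers, PTPRC had at most 5 counts in any library, and CD3E and HBB were at 0. Of the endothelial markers, CDH5 and VWF had at most 3 counts, while PECAM1 ran from 0.850 to 8.98 CPM. Of the fibroblast markers, DCN had at most 4, PDGFRA at most 2 and LUM at most 13 counts, while COL1A1 ran from 13.1 to 32.8 CPM. The summed endothelial list read 2.98 to 4.19 CPM untreated, 0.925 to 1.33 CPM at 8 h and 7.22 to 8.98 CPM at 24 h, and the fibroblast list 13.2 to 14.2, 31.9 to 32.9 and 17.4 to 19.0 CPM. Their part in the results was not tested.

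These enzymes split oxygen at an iron atom, oxidise 2-oxoglutarate to succinate, and place a hydroxyl group on their substrate. On a methylated nitrogen the hydroxymethyl group falls off as formaldehyde, which is how JmjC-domain KDM proteins demethylate histone lysines and how ALKBH proteins and FTO demethylate DNA and RNA. TET enzymes oxidise 5-methylcytosine in DNA, and HIF1AN, RIOX1, RIOX2, KDM8 and JMJD6 leave a stable hydroxyl group on proteins. Several KDM genes, KDM3A and KDM4B among them, are known targets of the hypoxia-inducible factors (HIF). mRNA levels say nothing of enzyme activity or of how much iron an enzyme holds, which were not measured.

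Promoter sequences are shown for TET3, KDM6B and KDM2A, which were higher at both times, and for KDM4B and KDM3B, which were lower at both times, since they are the members of these kinds whose 250 bases before the start are in the reference and hold no annotated exon. The sequences are from RefSeq on GRCh38.p14, run 5′ to 3′ on the gene's strand, and capitals mark the HIF core, ACGTG or GCGTG on either strand. CACGTG reads as the core on both strands and counts as a pair. All lie on the plus strand. TET3 (chr2:73984660-73984909) held 5 cores, KDM2A (chr11:67119013-67119262) held 3 and KDM6B (chr17:7833967-7834216) held 1. Of the lower pair, KDM4B (chr19:4968863-4969112) held 4 and KDM3B (chr5:138352435-138352684) held 0.
TET3: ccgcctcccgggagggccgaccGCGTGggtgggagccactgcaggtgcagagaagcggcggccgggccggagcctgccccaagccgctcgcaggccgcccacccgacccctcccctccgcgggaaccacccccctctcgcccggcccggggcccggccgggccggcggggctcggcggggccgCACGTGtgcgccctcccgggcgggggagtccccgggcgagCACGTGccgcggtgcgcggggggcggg
KDM6B: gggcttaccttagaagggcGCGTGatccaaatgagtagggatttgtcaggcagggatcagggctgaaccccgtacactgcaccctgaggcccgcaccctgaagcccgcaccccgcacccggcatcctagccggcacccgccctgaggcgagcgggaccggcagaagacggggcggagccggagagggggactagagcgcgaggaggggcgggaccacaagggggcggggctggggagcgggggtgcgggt
KDM2A: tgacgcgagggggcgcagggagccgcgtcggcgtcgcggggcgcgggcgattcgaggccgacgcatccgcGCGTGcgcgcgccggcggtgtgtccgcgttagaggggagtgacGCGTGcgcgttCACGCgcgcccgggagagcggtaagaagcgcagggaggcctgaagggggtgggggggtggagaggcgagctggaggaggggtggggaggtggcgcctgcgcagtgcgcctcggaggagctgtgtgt
KDM4B: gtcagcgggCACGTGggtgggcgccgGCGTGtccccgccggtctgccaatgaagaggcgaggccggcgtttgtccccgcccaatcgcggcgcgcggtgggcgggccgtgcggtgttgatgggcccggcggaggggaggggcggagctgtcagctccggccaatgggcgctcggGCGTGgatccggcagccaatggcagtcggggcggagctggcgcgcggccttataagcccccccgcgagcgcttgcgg
KDM3B: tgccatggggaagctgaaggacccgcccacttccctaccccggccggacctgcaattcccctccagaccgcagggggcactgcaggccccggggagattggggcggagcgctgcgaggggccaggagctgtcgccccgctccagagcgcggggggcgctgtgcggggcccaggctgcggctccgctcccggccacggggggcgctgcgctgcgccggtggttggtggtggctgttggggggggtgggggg

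RefSeq promoters were found for 33 of the 37 members. The HIF core was present in the 250 bases of 20 of these 33 (60.6%), compared with 43.1% of 27305 promoters in the reference. The core of the metal response element, TGCACNC or TGCGCNC on either strand, was present in 11 of 33 (33.3%), compared with 24.7% of all promoters. The reference promoters were not matched to the members for GC content, which ran from 43.2% (PHF8) to 84.8% (PHF2) in the members. Its part in these shares was not tested. A match of letters is a description and not a binding site.

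In untreated cells, levels per length of the canonical transcript spanned from 79.0 ± 1.77 CPM per kb (SD, n = 3) for ALKBH5, an eraser of N6-methyladenosine (m6A) in RNA, to 0.256 ± 0.0352 CPM per kb for TET1. After ALKBH5 came KDM1A at 42.9 ± 0.106, JMJD6 at 37.8 ± 0.269 and ALKBH7 at 36.7 ± 2.25 CPM per kb, of which JMJD6 and ALKBH7 lay within 1 SD of each other. KDM2A (21.3 ± 0.264), KDM5C (20.4 ± 0.342) and KDM3B (18.8 ± 0.513 CPM per kb) followed. At the low end, above TET1, lay KDM4D at 0.413 ± 0.0444, KDM7A at 0.605 ± 0.0405, KDM8 at 1.53 ± 0.221 and KDM4C at 1.56 ± 0.0939 CPM per kb, the last pair again within 1 SD. The most abundant TET gene per kb was TET3 (4.76 ± 0.303), followed by TET2 (3.12 ± 0.106 CPM per kb). Reads were counted over all annotated exons of a gene, so levels per kb, and the ratios and shares between genes below, depend on the length chosen. KDM1A has 18325 exon bases but a canonical transcript of 3085, and JMJD6 has 5969 and 1621, while ALKBH7 has 1093 and 970. The SDs do not cover this.

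At 8 h of TEPA, ALKBH6, KDM7A, TET3 and KDM6B were higher than in untreated cells by 0.57 to 0.94 on the log2 scale, and JMJD6, PHF8, ALKBH4 and KDM2A by 0.15 to 0.26. ALKBH7, ALKBH2, KDM4B, KDM3A, KDM3B, RIOX1 and HIF1AN were lower, with log2 fold changes from -0.47 to -0.14. By edgeR's quasi-likelihood test with an adjusted p under 0.05, 8 of the 35 tested members were higher (22.9%, compared with 25.2% of all 16556 genes tested), 7 were lower (20.0%, compared with 24.5%) and 20 were not called, shares close to those of all genes. With a log2 fold change beyond 0.5 as well, 4 members were higher and 0 lower, where 10.1% and 7.67% of all genes were called. The 3 libraries of each group did not overlap for 10 members that were higher and 10 that were lower (29.2% and 28.6% of all genes). The median log2 fold change was -0.00 over the members and -0.00 over all genes.

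At 24 h of TEPA, KDM6B and TET3 were higher than in untreated cells by 0.76 and 0.56 on the log2 scale, with KDM7A, ALKBH8, KDM5B, KDM5A, KDM1B and KDM2A at 0.16 to 0.22. KDM1A (-0.50), KDM3A (-0.48), RIOX2 (-0.46) and ALKBH2 (-0.39) had the lowest called values, and KDM8, KDM4C, KDM4B, KDM6A, KDM3B, PHF2, RIOX1 and KDM5C ran from -0.35 to -0.15. In all, 8 members were higher than in untreated cells (22.9%, compared with 25.7% of all genes), 12 were lower (34.3%, compared with 26.8%) and 15 were not called. Beyond a log2 fold change of 0.5, 2 members were higher and 0 lower, with 10.2% and 8.46% of all genes called, and groups did not overlap for 12 members that were higher and 14 that were lower (28.4% and 28.9% of all genes). Median log2 fold changes were -0.03 over the members and 0.00 over all genes. Without the KDM1 genes, 7 of 33 members were higher and 11 lower at 24 h, and with upper-quartile factors the split of all members was 10 higher and 9 lower. The share of all genes called with upper-quartile factors was not counted.

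The summed level of all members was 1827 ± 9.73 CPM in untreated cells (SD, n = 3), 1860 ± 22.4 CPM at 8 h and 1799 ± 29.2 CPM at 24 h, and the untreated and 24 h libraries overlapped. In these bulk libraries, fewer cells with a transcript and less of it per cell cannot be told apart.

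**Figure D1:**
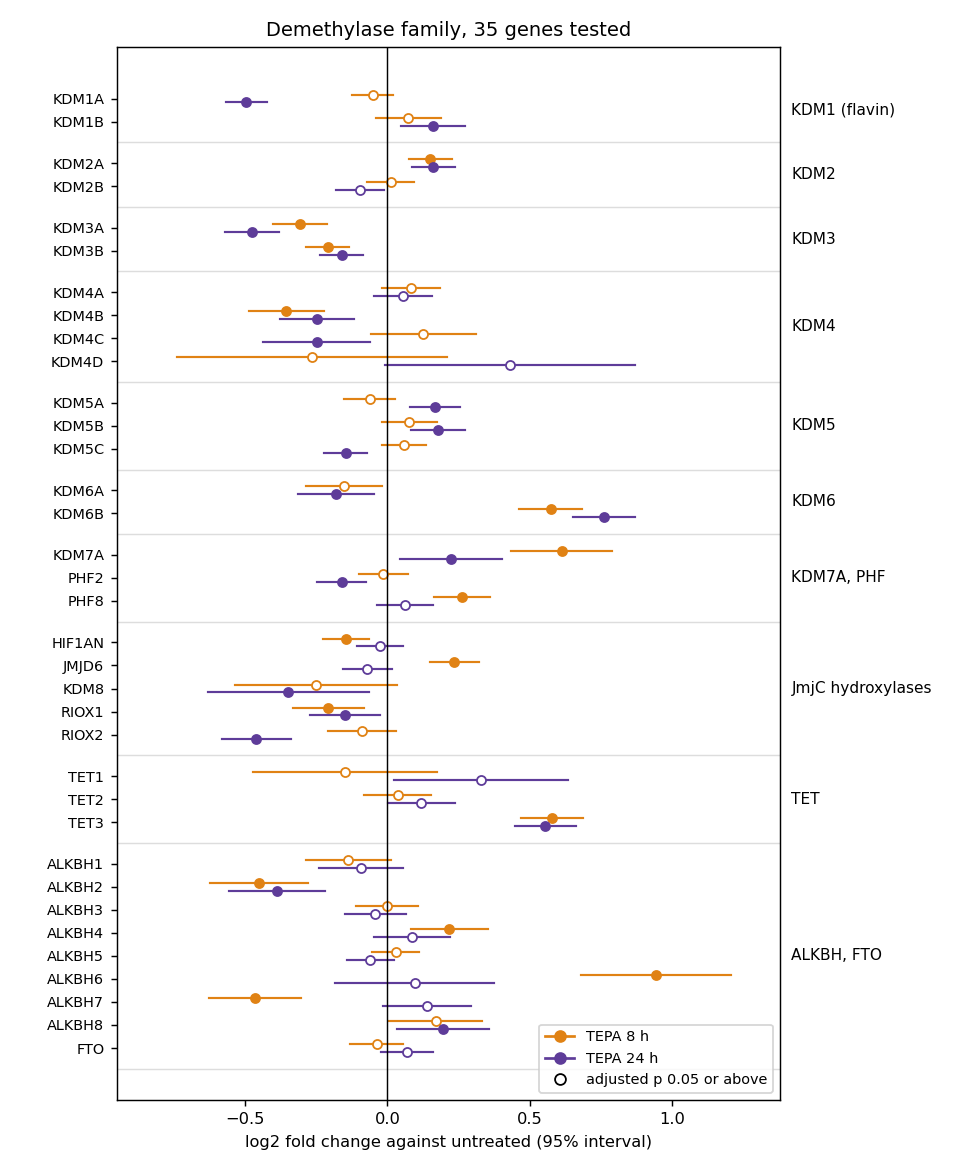
Log2 fold change against untreated cells (x axis) with its 95% interval, not adjusted for the number of genes, for the 35 tested members (y axis, by role), at TEPA 8 h (orange) and 24 h (purple). Filled points have an adjusted p under 0.05 by edgeR's quasi-likelihood test, and ALKBH6 at 8 h (0.94) and KDM6B at 24 h (0.76) lie furthest to the right.

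KDM6B removes methyl groups from lysine 27 of histone H3, the mark written by EZH1 and EZH2, and is known as a gene that responds quickly to stimuli. It lies at chr17:7834217-7854796 (plus strand, hg38, GENCODE). It read 43.1, 38.9 and 38.0 CPM in untreated cells, 57.9, 59.5 and 61.3 CPM at 8 h, and 70.3, 68.3 and 64.8 CPM at 24 h. Each TEPA library was above each untreated library, and the 24 h libraries were above those of 8 h. Log2 fold changes were 0.57 ± 0.0519 (SE, adjusted p = 3.4e-07) at 8 h and 0.76 ± 0.0514 (adjusted p = 8.3e-09) at 24 h by edgeR's quasi-likelihood test. The further rise between times was 0.19 ± 0.0503 (adjusted p = 0.0049).

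KDM6A, which shares this substrate and is encoded on the X chromosome, was not called at 8 h (-0.15, adjusted p = 0.057 by edgeR) but was lower by 24 h (-0.18, adjusted p = 0.025). The 24 h call of KDM6A was lost without untreated replicate 1 (-0.14, adjusted p = 0.080), TEPA 24 h replicate 1 (-0.17, adjusted p = 0.074) or TEPA 24 h replicate 3 (-0.16, adjusted p = 0.073), and the 8 h difference was called without untreated replicate 3 (-0.20, adjusted p = 0.031) or TEPA 8 h replicate 2 (-0.20, adjusted p = 0.035). Per kb, KDM6B was 1.67 ± 0.0419 times as abundant as KDM6A in untreated cells (SD, n = 3), 2.77 ± 0.214 times at 8 h and 3.21 ± 0.127 times at 24 h. The ratios of the 3 groups did not overlap. Their size depends on the length chosen, since KDM6A has 27742 exon bases and a canonical transcript of 6094, against 7392 and 6728 for KDM6B.

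TET3 oxidises 5-methylcytosine in DNA and lies at chr2:73984910-74108176 (plus strand, hg38). Its levels were 53.6, 60.8 and 57.9 CPM in untreated cells, 80.5, 86.7 and 90.5 CPM at 8 h, and 84.4, 85.0 and 84.0 CPM at 24 h. Both treated groups lay wholly above the untreated one and overlapped each other. The log2 fold change was 0.58 ± 0.0512 at 8 h (SE, adjusted p = 2.7e-07), then 0.56 ± 0.0510 at 24 h (adjusted p = 2.5e-07 by edgeR's quasi-likelihood test). Between times TET3 differed by -0.02 with a 95% interval of -0.13 to 0.08, so a change larger than these bounds was not seen.

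The other two TET genes were not called against untreated cells at either time. TET2 had log2 fold changes of 0.04 and 0.12 (adjusted p = 0.62 and 0.080 by edgeR). TET1, at 2.46 ± 0.338 CPM in untreated cells (SD, n = 3), gave -0.15 at the earlier and 0.33 at the later time (adjusted p = 0.44 and 0.068 by edgeR), and differed between times by 0.48 ± 0.148 (SE, adjusted p = 0.012). That difference did not hold without TEPA 8 h replicate 2 (0.39, adjusted p = 0.060), and the 24 h value of TET1 was called without untreated replicate 1 (0.44, adjusted p = 0.021). TET3 made up 58.5 ± 1.80% of the TET transcripts per kb in untreated cells, 67.5 ± 1.56% at 8 h and 65.4 ± 1.14% at 24 h.

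KDM7A and its relatives PHF8 and PHF2 bind methylated lysine 4 of histone H3 through a PHD finger, and KDM7A and PHF8 demethylate other histone lysines nearby. KDM7A (chr7:140084746-140176983, minus strand) read 6.00, 5.30 and 5.43 CPM in untreated cells, 8.65, 8.26 and 8.63 CPM at 8 h and 6.71, 6.37 and 6.40 CPM at 24 h. The 8 h libraries stood above all others and the 24 h libraries lay between. By log2 fold change KDM7A rose by 0.61 ± 0.0834 at 8 h (adjusted p = 2.0e-05), then 0.22 ± 0.0847 at 24 h (adjusted p = 0.036), with a fall between times of -0.39 ± 0.0815 (adjusted p = 0.00078 by edgeR's quasi-likelihood test).

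The 24 h call of KDM7A was lost without untreated replicate 2 (0.19, adjusted p = 0.12), untreated replicate 3 (0.20, adjusted p = 0.10), or TEPA 24 h replicate 1 (0.20, adjusted p = 0.12), 2 (0.24, adjusted p = 0.055) or 3 (0.23, adjusted p = 0.057), while its 8 h call held in all 9 such fits. It was also lost under DESeq2 (0.23, adjusted p = 0.077).

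PHF8, at chrX:53936676-54048958 (minus strand), showed the same order of groups at a higher level. It read 43.3, 45.0 and 45.7 CPM in untreated cells, 53.2, 51.9 and 55.8 CPM at 8 h, and 48.1, 47.1 and 44.7 CPM at 24 h. The 8 h group did not overlap the other two, which overlapped each other. PHF8 was higher by 0.26 ± 0.0462 at 8 h (SE, adjusted p = 0.00021), was not called at 24 h (0.06, adjusted p = 0.28), and fell between times by 0.20 (adjusted p = 0.0016 by edgeR). PHF2 was not called at 8 h (-0.01, adjusted p = 0.80) but lower at 24 h (-0.16, adjusted p = 0.0037 by edgeR). Its fall between times of -0.15 (adjusted p = 0.0065) did not hold without TEPA 8 h replicate 2 (-0.11, adjusted p = 0.060). Per kb, KDM7A was 2.57 ± 0.150% of these 3 transcripts in untreated cells, 3.69 ± 0.156% at 8 h and 3.17 ± 0.107% at 24 h.

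**Figure D2:**
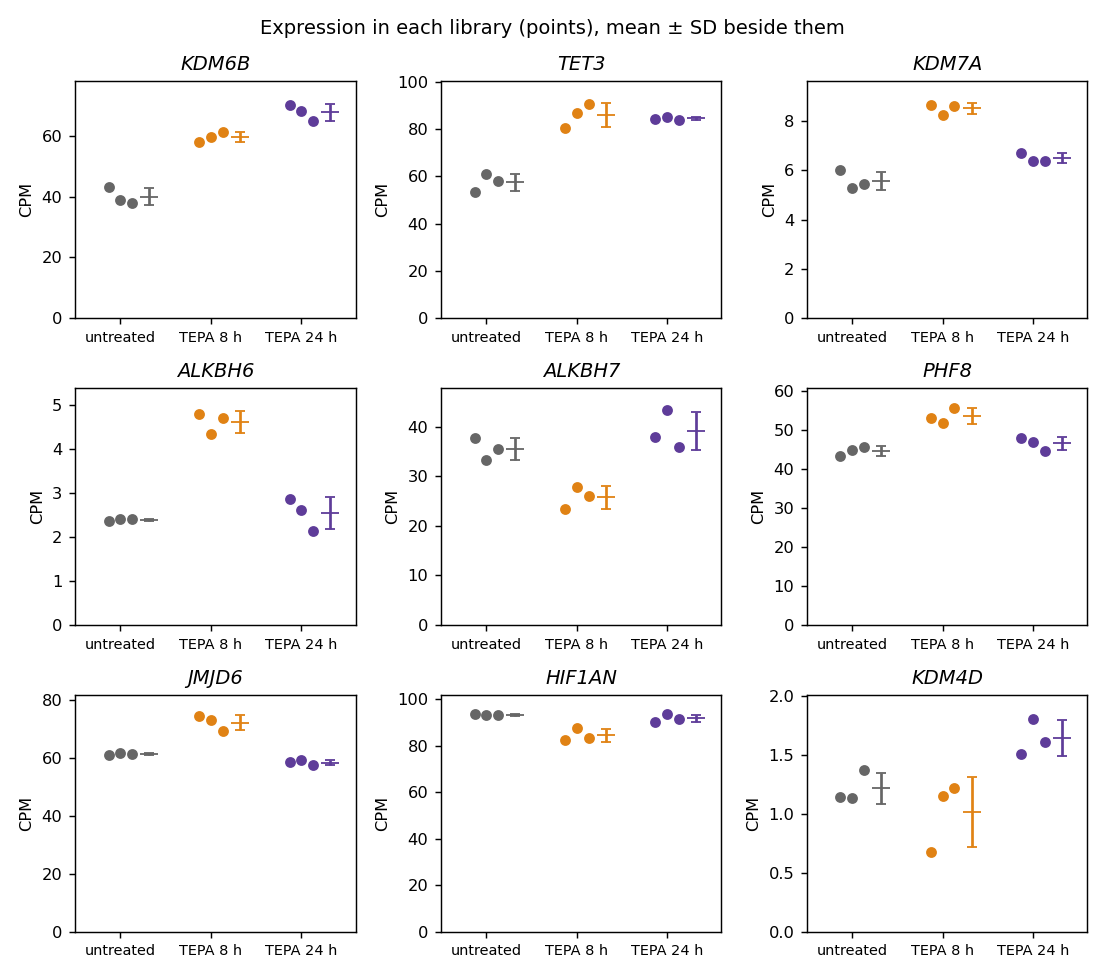
Level in CPM (y axis, from 0) of 9 members in each of the 3 untreated (grey), TEPA 8 h (orange) and TEPA 24 h (purple) libraries, as points, with the mean ± SD beside them. KDM6B and TET3 are higher in both treated groups, KDM7A, ALKBH6, PHF8 and JMJD6 are highest at 8 h, ALKBH7 and HIF1AN are lowest at 8 h, and 1 of the 8 h libraries of KDM4D reads 0.675 CPM, below the other two.

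Both KDM3 genes, which encode demethylases of lysine 9 of histone H3, were lower at both times. KDM3A was lower by 0.31 on the log2 scale at 8 h (-0.31 ± 0.0443, adjusted p = 3.5e-05) and by 0.48 at 24 h (-0.48 ± 0.0444, adjusted p = 3.0e-07 by edgeR's quasi-likelihood test), and it fell between times by 0.17 (adjusted p = 0.0049). KDM3B gave -0.21 and -0.16 (adjusted p = 0.00015 and 0.0012 by edgeR). Together they summed to 175 ± 5.14 CPM in untreated cells (SD, n = 3), 149 ± 1.97 CPM at 8 h and 148 ± 1.09 CPM at 24 h, and the treated libraries lay below each untreated one.

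In the KDM4 group, which acts on trimethylated lysine 9 of histone H3, the 4 members with counts took different courses. KDM4B was lower both at 8 h (-0.35 ± 0.0623, adjusted p = 0.00022) and, by less, at 24 h (-0.25 ± 0.0617, adjusted p = 0.0033 by edgeR's quasi-likelihood test). KDM4A was not called (0.08 and 0.05, adjusted p = 0.17 and 0.37 by edgeR), and 40.2% of its exon bases are shared on the same strand with another annotated gene, so its counts are uncertain. KDM4C gave 0.13 at 8 h (adjusted p = 0.25), then -0.25 at 24 h (adjusted p = 0.027 by edgeR), with a difference between times of -0.37 ± 0.0880 (adjusted p = 0.0019). The 24 h call of KDM4C was lost without untreated replicate 1 (-0.22, adjusted p = 0.064), untreated replicate 3 (-0.23, adjusted p = 0.080) or TEPA 24 h replicate 1 (-0.21, adjusted p = 0.11), and under DESeq2 (-0.24, adjusted p = 0.070).

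KDM4D lies next to KDM4E and KDM4F on chromosome 11 and was the only one of the 3 with counts, at chr11:94973709-94999519 (plus strand). It read 1.15, 1.14 and 1.37 CPM in untreated cells, 0.675, 1.15 and 1.22 CPM at 8 h, and 1.51, 1.81 and 1.61 CPM at 24 h. The 24 h libraries lay above the others, and the other groups overlapped. Neither comparison with untreated cells was called (-0.27 and 0.43, adjusted p = 0.35 and 0.092), and the difference between times was 0.70 ± 0.214 (adjusted p = 0.012 by edgeR). Without TEPA 8 h replicate 1 that difference was 0.47 (adjusted p = 0.061), and the 24 h value against untreated cells was 0.43 (adjusted p = 0.049).

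The KDM5 enzymes remove methyl groups from lysine 4 of histone H3. None of the 3 tested was called at 8 h, with log2 fold changes of -0.06 for KDM5A, 0.08 for KDM5B and 0.06 for KDM5C (adjusted p = 0.24, 0.17 and 0.20 by edgeR), nor was any at an unadjusted p under 0.05 or by DESeq2. At 24 h KDM5A (0.17, adjusted p = 0.0032) and KDM5B (0.18, adjusted p = 0.0036) were higher and KDM5C was lower (-0.15, adjusted p = 0.0029 by edgeR). The 24 h libraries differed from those of 8 h for KDM5A (0.23 ± 0.0416, adjusted p = 0.00024) and KDM5C (-0.20 ± 0.0360, adjusted p = 0.00017 by edgeR). KDM5B was called at 8 h without untreated replicate 1 (0.13, adjusted p = 0.017).

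Of the KDM2 proteins, which act on dimethylated lysine 36 of histone H3 and bind unmethylated CpG DNA, KDM2A was higher at both times (0.15 ± 0.0355 and 0.16 ± 0.0354, adjusted p = 0.0024 and 0.0013 by edgeR). KDM2B, part of a Polycomb complex, was not called (0.01 and -0.10, adjusted p = 0.83 and 0.053). Its difference between times of -0.11 (adjusted p = 0.031) was lost without untreated replicate 3 (-0.10, adjusted p = 0.058), TEPA 8 h replicates 2 (-0.10, adjusted p = 0.082) or 3 (-0.09, adjusted p = 0.13), or TEPA 24 h replicates 2 (-0.11, adjusted p = 0.059) or 3 (-0.09, adjusted p = 0.10), and under DESeq2 (-0.09, adjusted p = 0.090).

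The flavin-dependent KDM1A, which works with RCOR1 and HDAC1 on lysine 4 of histone H3, was the member with the lowest log2 fold change at 24 h. It was not called at 8 h (-0.05, adjusted p = 0.22) but lower at 24 h by 29.1% (-0.50 ± 0.0338 on the log2 scale, adjusted p = 9.2e-09 by edgeR's quasi-likelihood test), from 132 ± 0.326 to 93.8 ± 1.21 CPM (SD, n = 3). Between the times it fell by a similar amount (-0.44 ± 0.0338, adjusted p = 3.1e-08). KDM1B was not called at 8 h (0.07, adjusted p = 0.27) but higher at 24 h (0.16, adjusted p = 0.017), a call lost without untreated replicate 1 (0.13, adjusted p = 0.055), untreated replicate 3 (0.14, adjusted p = 0.082) or TEPA 24 h replicate 1 (0.15, adjusted p = 0.068).

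Among the protein hydroxylases, JMJD6 (chr17:76712832-76726799, minus strand), a lysyl hydroxylase that acts on splicing proteins, was higher at 8 h and not at 24 h. It read 60.8, 61.7 and 61.5 CPM in untreated cells, 74.4, 73.0 and 69.2 CPM at 8 h, and 58.5, 59.3 and 57.4 CPM at 24 h. All 8 h libraries were above, and all 24 h libraries below, the untreated ones. Its 8 h value rose by 0.24 ± 0.0402 on the log2 scale (adjusted p = 0.00017), the 24 h difference was -0.07 ± 0.0404 (adjusted p = 0.16), and between times JMJD6 changed by -0.31 ± 0.0402 (adjusted p = 1.0e-05 by edgeR's quasi-likelihood test).

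HIF1AN, the asparaginyl hydroxylase also called FIH that blocks the transactivation domain of HIF proteins, went the other way by a small amount. It lies at chr10:100529072-100559998 (plus strand) and read 93.8, 93.3 and 93.0 CPM in untreated cells, 82.5, 87.7 and 83.3 CPM at 8 h, and 90.3, 93.6 and 91.4 CPM at 24 h. The 8 h libraries were below all others, and the 24 h group overlapped the untreated one. HIF1AN fell by 9.52% at 8 h (-0.14 ± 0.0378 on the log2 scale, adjusted p = 0.0049), was not called at 24 h (-0.03, adjusted p = 0.59), and rose between times (0.12 ± 0.0378, adjusted p = 0.014 by edgeR).

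RIOX1 and RIOX2 hydroxylate histidines of ribosomal proteins. RIOX2 was not called at 8 h (-0.09, adjusted p = 0.20) but lower at 24 h (-0.46 ± 0.0570, adjusted p = 6.0e-06), with a fall of -0.37 between times (adjusted p = 5.0e-05 by edgeR). RIOX2 was called at 8 h without untreated replicate 1 (-0.14, adjusted p = 0.049). RIOX1 was lower at 8 h (-0.21, adjusted p = 0.0080), and its 24 h value of -0.15 (adjusted p = 0.043) lost its call in 6 of the 9 fits without 1 library. These were the fits without untreated replicates 2 (-0.12, adjusted p = 0.15) or 3 (-0.14, adjusted p = 0.10), TEPA 8 h replicates 2 or 3 (both -0.15, adjusted p = 0.0525), or TEPA 24 h replicates 1 (-0.14, adjusted p = 0.12) or 3 (-0.13, adjusted p = 0.11).

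KDM8, also known as JMJD5, gave -0.25 at 8 h (adjusted p = 0.13), then -0.35 at 24 h (adjusted p = 0.038 by edgeR), from 3.73 ± 0.536 CPM in untreated cells (SD, n = 3). The 24 h call of KDM8 was lost without untreated replicates 1 (-0.32, adjusted p = 0.078) or 2 (-0.26, adjusted p = 0.15), or TEPA 24 h replicates 1 (-0.40, adjusted p = 0.053), 2 (-0.37, adjusted p = 0.063) or 3 (-0.29, adjusted p = 0.12). Without untreated replicate 3 its 8 h value was called (-0.37, adjusted p = 0.037).

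The ALKBH group held the members with the highest and the lowest log2 fold change at 8 h, in a pair of genes on chromosome 19. ALKBH6, whose substrate is not well known, lies at chr19:36009120-36014239 (minus strand). It read 2.37, 2.41 and 2.41 CPM in untreated cells, 4.80, 4.34 and 4.71 CPM at 8 h, and 2.86, 2.62 and 2.14 CPM at 24 h. The 8 h libraries were above all others, and the 24 h group overlapped the untreated one. ALKBH6 was 1.92-fold higher at 8 h (0.94 ± 0.124 on the log2 scale, adjusted p = 1.4e-05), 0.10 ± 0.131 at 24 h (adjusted p = 0.56), and lower by 0.85 on the log2 scale between times (-0.85 ± 0.122, adjusted p = 2.5e-05 by edgeR's quasi-likelihood test). In the GENCODE annotation, 25.1% of its exon bases are shared on the same strand with another gene, so its counts are uncertain.

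ALKBH7 encodes a mitochondrial protein with a part in programmed necrosis, and lies at chr19:6372794-6375250 (plus strand). It read 37.8, 33.4 and 35.6 CPM in untreated cells, 23.3, 27.8 and 26.1 CPM at 8 h, and 38.1, 43.3 and 36.0 CPM at 24 h. The 8 h libraries lay below all others, and the untreated and 24 h libraries overlapped. The log2 fold change of ALKBH7 was -0.47 ± 0.0759 at 8 h (adjusted p = 0.00011), then 0.14 ± 0.0733 at 24 h (adjusted p = 0.13), and 0.60 ± 0.0754 between times (adjusted p = 5.7e-06 by edgeR's quasi-likelihood test). Its 24 h value was called without TEPA 24 h replicate 3 (0.19, adjusted p = 0.047). The ratio of ALKBH7 to ALKBH6 per kb was 14.6 ± 1.0 in untreated cells (SD, n = 3), 5.50 ± 0.756 at 8 h and 15.2 ± 1.92 at 24 h, with no overlap between the 8 h libraries and the others. Its size depends on the length chosen, since ALKBH6 has 4293 exon bases and a canonical transcript of 951, against 1093 and 970 for ALKBH7.

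Of the DNA repair enzymes, ALKBH2 was lower at both times (-0.45 ± 0.0811 and -0.39 ± 0.0799, adjusted p = 0.00026 and 0.00073 by edgeR), while ALKBH3 gave values near 0 (-0.00 and -0.04, adjusted p = 0.99 and 0.51). ALKBH4 was higher at 8 h (0.22 ± 0.0634, adjusted p = 0.0095) and not called at 24 h (0.09, adjusted p = 0.27), and it differed between times without TEPA 24 h replicate 2 (-0.17, adjusted p = 0.047). ALKBH1, a demethylase of tRNA and DNA, was not called (-0.14 and -0.09, adjusted p = 0.12 and 0.29). ALKBH8, a tRNA wobble-uridine modifier, gave 0.17 at 8 h (adjusted p = 0.080), then 0.20 at 24 h (adjusted p = 0.043 by edgeR). The 24 h call of ALKBH8 was lost without untreated replicates 1 (0.15, adjusted p = 0.12) or 3 (0.20, adjusted p = 0.092), TEPA 8 h replicate 3 (0.19, adjusted p = 0.057), or TEPA 24 h replicates 1 (0.21, adjusted p = 0.068) or 3 (0.13, adjusted p = 0.19), and its 8 h value was called without TEPA 8 h replicate 2 (0.23, adjusted p = 0.032).

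The m6A erasers ALKBH5 and FTO were not called against untreated cells at either time. ALKBH5 gave 0.03 (95% interval -0.05 to 0.11) at 8 h and -0.06 (-0.14 to 0.02) at 24 h, at 250 ± 5.58, 255 ± 5.45 and 239 ± 10.3 CPM in the 3 groups (SD, n = 3). FTO gave -0.04 (-0.13 to 0.06) at 8 h and 0.07 (-0.02 to 0.16) at 24 h. Between times FTO missed the threshold by edgeR's quasi-likelihood test (0.11, adjusted p = 0.0501) and passed it without untreated replicates 1 or 2 (both 0.11, adjusted p = 0.041), and ALKBH5 passed without untreated replicate 1 (-0.09, adjusted p = 0.037) or TEPA 24 h replicate 1 (-0.11, adjusted p = 0.046).

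The times were also compared directly, which uses no untreated library in the contrast. Between 8 h and 24 h, 6 members were higher at 24 h (17.1%, compared with 26% of all genes tested), 11 were lower (31.4%, compared with 28.8%) and 18 were not called. Beyond a log2 fold change of 0.5 these were 2 higher (KDM4D and ALKBH7) and 1 lower (ALKBH6), where 10.4% and 10.8% of all genes were called. Groups did not overlap for 10 members higher and 13 lower at 24 h (29.6% and 32.4% of all genes). The higher members were KDM4D, ALKBH7, TET1, KDM5A, KDM6B and HIF1AN, and the lower ones were ALKBH6, KDM1A, KDM7A, KDM4C, RIOX2, JMJD6, KDM5C, PHF8, KDM3A, PHF2 and KDM2B. KDM4A, TET2, ALKBH1, ALKBH3, ALKBH5 and FTO were called in none of the 3 comparisons.

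**Figure D3:**
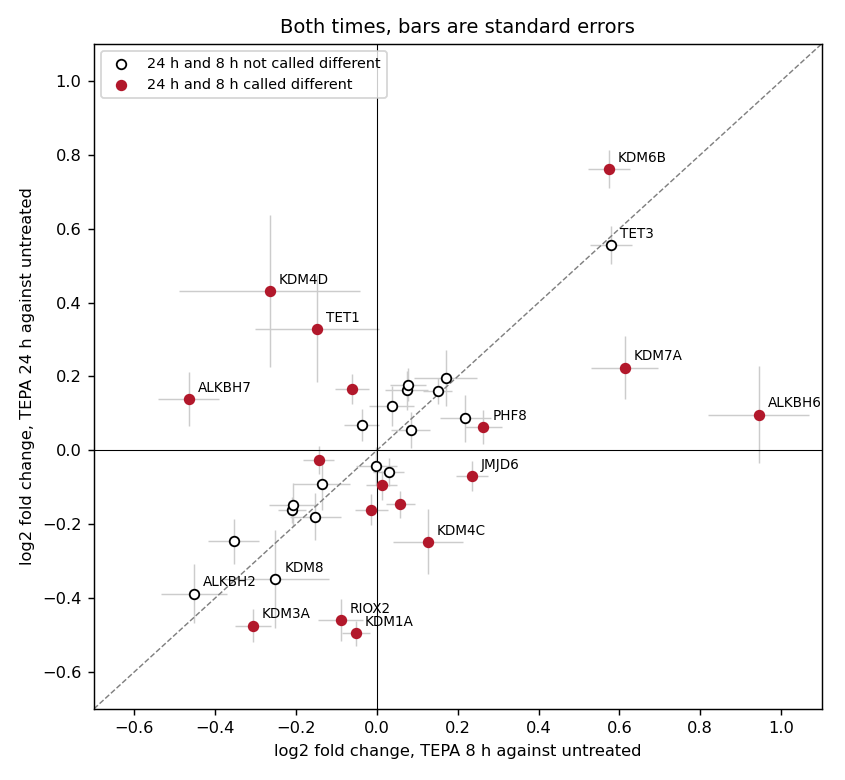
Log2 fold change of the 35 tested members at TEPA 8 h (x axis) and 24 h (y axis), both against the same untreated libraries, with standard errors as bars and the line of equal change dashed. Red points differ between 8 h and 24 h with an adjusted p under 0.05 by edgeR. TET3 lies on the line, ALKBH6 (0.94 and 0.10) and KDM7A (0.61 and 0.22) lie below it, and ALKBH7 (-0.47 and 0.14) lies above it.

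The enzymes that write the marks were counted beside those that erase them, with no test of the lists. Over all genes tested, 25.2% were higher and 24.5% lower at 8 h, and 25.7% were higher and 26.8% lower at 24 h, and the shares of each list stand against these. Of 30 histone lysine methyltransferases, 19 were higher and 2 lower at 8 h (63.3% and 6.67%, median log2 fold change 0.14), and 12 were higher and 8 lower at 24 h (40% and 26.7%, median 0.06). KMT2B (0.74) and EZH1 (0.68) had the highest called values at 8 h, and SMYD3 (-0.34) and KMT2E (-0.10) were the lower pair. At 24 h ASH1L (0.37) and NSD1 (0.36) were highest, and EZH2 (-0.49) and SMYD3 (-0.43) lowest. EZH2 and EZH1 write the mark that KDM6B erases, and EZH1 was higher at 24 h (0.29, adjusted p = 0.00034 by edgeR).

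Of 12 genes of DNA methylation, which the TET enzymes act against, 5 were higher and 1 lower at 8 h (41.7% and 8.33%), and 5 were higher and 4 lower at 24 h (41.7% and 33.3%). OGT, a glycosyltransferase that binds TET proteins, had the highest called value at 8 h (0.46), with MBD1 at 0.32 and MBD2 as the lower gene (-0.13). The de novo methyltransferase DNMT3B was lowest at 24 h (-1.11), followed by UHRF1 (-0.41), while MBD3 (0.61) and DNMT3A (0.26) were highest. Of 17 tested m6A writers and readers, 3 were higher and 3 lower at 8 h (17.6% each, below the shares of all genes), and 3 were higher and 7 lower at 24 h (17.6% and 41.2%), with IGF2BP3 (-0.40) and IGF2BP2 (-0.33) lowest.

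Of 18 proteins that work in complexes with members, 8 were higher and 8 lower at 8 h (44.4% each), and 6 were higher and 8 lower at 24 h (33.3% and 44.4%). PCGF1 (0.45), which joins KDM2B in a Polycomb complex, was highest at 8 h, and RNF2 (-0.38) of the same complex and HDAC1 (-0.34) were lowest. At 24 h PAGR1 (0.58), a subunit of complexes that hold KDM6A, and PHF21A (0.51), a subunit of complexes that hold KDM1A, were highest, and RNF2 (-0.48) and BCOR (-0.25) lowest.

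Of 28 tested relatives of these oxygenases that are not members, 6 were higher and 13 lower at 8 h (21.4% and 46.4%, beside 25.2% and 24.5% of all genes). At 24 h 4 were higher and 14 lower (14.3% and 50%, beside 25.7% and 26.8%). Medians were -0.13 at 8 h and -0.24 at 24 h. The list was drawn by family, and not every gene in it need encode an active oxygenase. PHYHD1 was lowest at both times (-0.93 and -1.25), and OGFOD2 was among the highest (1.11 and 0.72). EGLN3, a prolyl hydroxylase of HIF proteins, is itself a HIF target and is counted in that list as well. It was second lowest of the relatives at 8 h (-0.82) and not called at 24 h (0.01, adjusted p = 0.93 by edgeR). Of 15 HIF targets, 11 were lower and 3 higher at 8 h (73.3% and 20.0%), with a median of -0.50, and 6 were lower and 2 higher at 24 h (40% and 13.3%), with a median of -0.09. CA9 was lowest at both times (-3.12 and -2.83) at a mean of only 1.70 CPM, and PFKFB4 was highest at both (0.67 and 0.91).

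Of 17 genes that make or use 2-oxoglutarate, succinate and fumarate, 3 were higher and 8 lower at 8 h (17.6% and 47.1%), and 2 were higher and 7 lower at 24 h (11.8% and 41.2%). IDH2 (-0.60) and IDH1 (-0.59), which make 2-oxoglutarate, were lowest at 8 h, while SLC25A11 (-0.61), its mitochondrial carrier, and FH (-0.41) were lowest at 24 h. Of 12 genes of iron handling, 1 was higher and 6 lower at 8 h (8.33% and 50%), and 1 was higher and 8 lower at 24 h (8.33% and 66.7%). The transferrin receptor TFRC was the higher gene each time (0.24 and 0.32), and SLC40A1, the iron exporter, was lowest (-1.43 and -1.05) at a mean of only 0.654 CPM.

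**Figure D4:**
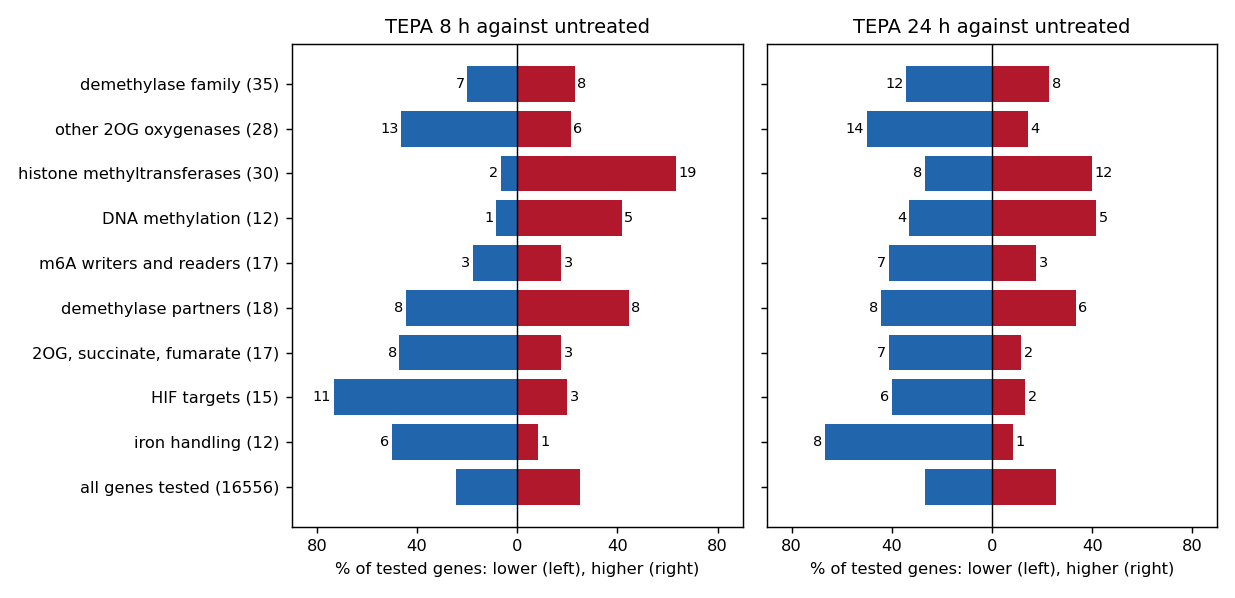
Share of tested genes called lower (left, blue) and higher (right, red) in each list (x axis, %, numbers at the bars are genes, numbers in brackets are genes tested), at TEPA 8 h and 24 h against untreated cells, by edgeR with an adjusted p under 0.05. The demethylase family (8 higher and 7 lower at 8 h) lies near the share of all 16556 genes, and histone methyltransferases at 8 h (19 higher and 2 lower) have a larger share higher.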

How the data were processed

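The study sequenced 9 stranded mRNA libraries of MDA-MB-231 cells (3 groups of 3) with paired-end reads. After FastQC, the authors used HISAT2 for alignment to hg38 and featureCounts, with strand, for counting read pairs over the exons of each Ensembl gene name. Raw counts were deposited, without normalization, and all columns were used. Reads in exons that overlapping genes of one strand share can alter a member's level under this counting.

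The analysis used edgeR 4.0.16 under R 4.3.3. Low genes were removed by filterByExpr (minimum count 10), libraries were scaled by TMM factors (0.978 to 1.039), and all 9 were fitted in one quasi-likelihood model (biological coefficient of variation 0.0481). Benjamini-Hochberg adjustment ran over all 16556 genes tested, and a call is an adjusted p under 0.05. The SE was taken as |log2 fold change|/√F. Positions and canonical transcript lengths are from GENCODE on hg38. The fitting code was tested on simulated counts.

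Members and lists were chosen with earlier results of these data known. Every member is given. Values in every library are given for members called beyond a log2 fold change of 0.5 in any comparison, or whose call against untreated cells and difference between times were called in opposite directions. In other lists at most the 2 highest and 2 lowest called genes are named per comparison, apart from EZH1 and EGLN3 at 24 h. Some genes of these lists are not reported here by name. Alternatives were DESeq2 1.42.0, upper-quartile or RLE factors, no filter, 10 counts in every library, a fold limit, only the 2 groups compared, a replicate block, and leaving out each library. Replicates of a group differed beyond sampling noise (chi-square per degree of freedom 2.35 to 20.5). Intervals and floors cover what these libraries show and counting error only.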

Additional observations from a re-analysis of the deposited data

Results flagged for a closer look

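For 17 members the level differed between the 8 h and 24 h TEPA libraries by a direct test (edgeR's quasi-likelihood test of 24 h against 8 h, adjusted over all genes). With no untreated group for each time, time in culture cannot be told apart from time with TEPA. The members called made up 17.1% (higher at the later time) and 31.4% (lower) of the 35 members tested, where 26% and 28.8% of all genes were called. Groups of 3 libraries were too small to judge single libraries as outlying, but each library was left out in turn. The call was lost in 1 of the 9 fits for KDM4D, TET1 and PHF2, and in 5 for KDM2B. The largest differences were in ALKBH6 (-0.85 on the log2 scale, adjusted p = 2.5e-05), KDM4D (0.70, adjusted p = 0.012), ALKBH7 (0.60, adjusted p = 5.7e-06) and TET1 (0.48, adjusted p = 0.012), of which KDM4D, TET1 and ALKBH6 were at low levels (1.22, 2.46 and 2.40 CPM in untreated cells). Of the exon bases of ALKBH6, 25.1% are shared with another gene on the same strand. KDM1A (-0.44, adjusted p = 3.1e-08), KDM7A (-0.39, adjusted p = 0.00078), KDM4C (-0.37, adjusted p = 0.0019), RIOX2 (-0.37, adjusted p = 5.0e-05) and JMJD6 (-0.31, adjusted p = 1.0e-05) were lower at 24 h than at 8 h. So were KDM5C (-0.20, adjusted p = 0.00017), PHF8 (-0.20, adjusted p = 0.0016), KDM3A (-0.17, adjusted p = 0.0049), PHF2 (-0.15, adjusted p = 0.0065) and KDM2B (-0.11, adjusted p = 0.031). KDM5A (0.23, adjusted p = 0.00024), KDM6B (0.19, adjusted p = 0.0049) and HIF1AN (0.12, adjusted p = 0.014) were higher at 24 h.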

How the results depend on the processing

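No member changed direction with a call under any alternative. Apart from the fold limit, the share of all genes called under each alternative was not counted. A change in the numbers of members below can therefore not be read as one of the members alone. Requiring a log2 fold change beyond 0.5 left 4 members higher and 0 lower at 8 h, 2 higher and 0 lower at 24 h, and 2 higher and 1 lower at 24 h against 8 h. Leaving out each library in turn gave 5 to 9 members higher at 24 h against untreated cells, and the lowest number, 5, came from the fits that left out untreated replicate 3 or TEPA 24 h replicate 1. The members lower at 24 h against untreated cells numbered 8 to 12 in these fits, with 8 without TEPA 24 h replicate 1 (KDM4C, KDM6A, KDM8 and RIOX1 lost) and 9 without untreated replicate 1 or TEPA 24 h replicate 3. The 8 h calls were kept for all 15 called members under each alternative run apart from the fold limit. At 24 h against untreated cells, DESeq2 lost 4 calls (KDM7A, KDM4C, RIOX1 and KDM8), no filter lost 3, and upper-quartile factors lost 3 (KDM6A, RIOX1 and KDM8) and gained 2 (TET1 and TET2). RIOX1 also lost its 24 h call with RLE factors and with 10 counts in every library, and KDM7A and KDM8 lost theirs when only the 2 groups compared were fitted. Between times KDM2B lost its call under both other factors, DESeq2, no filter and only the 2 groups, and KDM5B or FTO gained one under 4 settings. Same-numbered libraries did not deviate together (correlations from -0.080 to 0.038), so the numbers are not taken as pairs. With the replicate block, 8 members were higher and 7 lower at 8 h, and 6 higher and 11 lower at 24 h, with KDM7A (0.22, adjusted p = 0.05001), ALKBH8 and KDM8 no longer called, and 6 higher and 10 lower between times. For members at a few CPM, such as KDM4D, TET1 and KDM8, depth limits the precision.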
